A study of Mus musculus with 6 samples.

Results

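The 10 genes described here are the pyruvate dehydrogenase complex and its regulators, which are the subunit genes *Pdha1*, *Pdhb*, *Dlat* and *Pdhx*, the kinase genes *Pdk1*, *Pdk2* and *Pdk4*, and the phosphatase genes *Pdp1*, *Pdp2* and *Pdpr*. They were chosen by gene symbol from a matrix of 61880 rows of estimated counts. *Pdpr* was selected on its measured values, because the row with its symbol differed between the genotypes. A row is 1 assembled gene, and rows that share an assembled locus were also added together, which gave 53912 loci. The 10 genes lay in 13 rows, since the loci of *Pdpr*, *Pdhb* and *Pdhx* each held a second row without a symbol, and all 13 rows and all 10 loci had enough counts to be tested. RNA came from isolated mammary epithelial cells of the inguinal glands of female FVB/NJ mice at puberty, 6 to 8 weeks of age, in 3 samples from transgenic *fat-1* mice and 3 from wild-type (WT) mice. The *fat-1* mice carry a roundworm desaturase in the whole body, with which they make *n*-3 polyunsaturated fatty acids (PUFA) from *n*-6 PUFA. Both genotypes were kept for life on the same modified AIN93G diet, in which safflower oil, rich in *n*-6 PUFA, made up 10% of the weight as fat and fat gave 22% of the energy. Each sample pooled cells of several mice, so the *p*-values measure the spread between pools. The roundworm transgene was not analysed here, so the genotype of each sample rests on its label. No measurement in the counts checks these labels, and the sign of every difference between the genotypes, that of the *Pdpr* row included, is uncertain to that extent.

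The pyruvate dehydrogenase complex stands in the mitochondrial matrix, where it turns pyruvate, the end product of glycolysis, into acetyl-CoA for the citric acid cycle or for the making of fatty acids. Pyruvate dehydrogenase kinases switch it off by adding phosphate to the alpha chain of its first enzyme, and phosphatases built from a catalytic chain (*Pdp1* or *Pdp2*) switch it on again. Pdpr, the regulatory chain, binds the Pdp1 catalytic chain. In the mammary gland the complex lies on the route from glucose to lipid. These are measurements of RNA only, and phosphorylation sets the activity of the complex to a large part.

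The counts of a sample summed to between 204539059 and 232148824, and values are given as CPM, counts relative to the total of the sample after TMM normalization. Values of each genotype are listed in the order of its samples 1 to 3. Samples of both genotypes differed widely in the markers of cell types. The mean log2(CPM + 1) of 22 luminal and basal markers was 6.41, 4.72 and 5.67 in *fat-1* samples 1 to 3 and 6.49, 5.72 and 4.79 in WT samples 1 to 3. That of 12 immune markers was 4.79, 5.76 and 5.30 in *fat-1* mice and 4.73, 5.06 and 5.79 in WT mice. In CPM, the luminal keratin *Krt8* lay between 210.1 and 898.9, the basal keratin *Krt5* between 32.3 and 179.7, the leukocyte antigen *Ptprc* between 156.6 and 407.2 and the fibroblast proteoglycan *Dcn* between 897.9 and 2080. The adipocyte hormone *Adipoq* did not exceed 0.50 CPM and the muscle creatine kinase *Ckm* did not exceed 0.34 CPM in any sample. *Adipoq* does not stand for its list, since the 7 adipocyte markers summed to 428.6 to 480.3 CPM in *fat-1* mice and 468.9 to 515.2 CPM in WT mice. Of these 7, 3 were at 1 CPM or more in every sample. The 8 skeletal muscle markers summed to 3.06 to 4.62 CPM in *fat-1* mice and 3.49 to 4.42 CPM in WT mice. The labelled epithelial cells therefore had luminal and basal markers in every sample, beside RNA of immune cells, fibroblasts and endothelial cells. All 13 luminal and 7 of the 9 basal markers were at 1 CPM or more in every sample. So were all 6 endothelial markers, which summed to 213.9 to 237.8 CPM in *fat-1* mice and 226.8 to 266.1 CPM in WT mice. In such bulk samples, fewer cells of a type and less RNA per cell cannot be told apart.

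The stretches of genome before the starts of 6 of the genes are shown first, since the genotype comparison, the relation to the cell mix and the split of counts between rows turn on these genes. As locus sums, *Pdha1* and *Pdk2* had the most similar pattern across samples, and *Pdhb* and *Pdhx* were each other's nearest match. *Pdk4* had the widest kinase difference between genotypes, and *Pdpr* was the gene chosen on its row. Of the 10 genes, 9 had a 250-base window before the start in the RefSeq table of GRCm38.p6, and *Pdp1* was not among them. Each sequence runs 5′ to 3′ on the strand of its gene and ends where the GENCODE gene or the RefSeq start begins, whichever comes first. Capitals mark matches, on either strand, to the CCAAT box (the letters CCAAT), the GC box (GGGCGG), the TATA box (TATAAA), the cAMP response element (TGACGTCA) or an extended nuclear receptor site (AAGGTCA). No motif contains another, and TGACGTCA reads the same on both strands.
Pdha1 (chrX:160138431-160138680, minus strand): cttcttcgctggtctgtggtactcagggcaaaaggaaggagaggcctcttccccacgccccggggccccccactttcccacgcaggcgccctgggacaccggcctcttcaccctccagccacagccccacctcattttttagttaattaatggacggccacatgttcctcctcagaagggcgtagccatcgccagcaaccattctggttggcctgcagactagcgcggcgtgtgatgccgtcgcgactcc
Pdk2 (chr11:95041372-95041621, minus strand): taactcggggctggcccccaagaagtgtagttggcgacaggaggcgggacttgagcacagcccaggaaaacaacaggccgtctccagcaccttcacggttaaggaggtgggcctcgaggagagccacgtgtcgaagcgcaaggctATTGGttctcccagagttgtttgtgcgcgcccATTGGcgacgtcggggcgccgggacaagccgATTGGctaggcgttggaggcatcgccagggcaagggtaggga
Pdhb (chr14:8173026-8173242, minus strand): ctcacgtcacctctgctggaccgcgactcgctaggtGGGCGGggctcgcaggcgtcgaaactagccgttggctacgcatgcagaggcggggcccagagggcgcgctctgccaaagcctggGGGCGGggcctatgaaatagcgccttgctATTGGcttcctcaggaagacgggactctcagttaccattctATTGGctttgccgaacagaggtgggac
Pdhx (chr2:103073514-103073763, minus strand): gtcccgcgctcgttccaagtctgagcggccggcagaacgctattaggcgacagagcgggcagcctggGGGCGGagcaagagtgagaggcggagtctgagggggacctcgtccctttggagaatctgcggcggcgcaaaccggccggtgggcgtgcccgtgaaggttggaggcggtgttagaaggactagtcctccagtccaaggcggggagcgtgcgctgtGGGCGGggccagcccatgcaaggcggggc
Pdk4 (chr6:5496310-5496528, minus strand): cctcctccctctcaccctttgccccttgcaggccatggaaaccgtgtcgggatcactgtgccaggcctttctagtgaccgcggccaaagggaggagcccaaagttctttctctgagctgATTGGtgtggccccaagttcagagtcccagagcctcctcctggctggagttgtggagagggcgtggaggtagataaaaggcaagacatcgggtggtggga
Pdpr (chr8:111094495-111094629, plus strand): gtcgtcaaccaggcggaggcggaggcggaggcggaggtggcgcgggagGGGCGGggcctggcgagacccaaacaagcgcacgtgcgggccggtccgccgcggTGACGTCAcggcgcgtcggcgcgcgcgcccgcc

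Over whole windows, CCAAT was found before 4 of the 9 genes and in 33.8% of all 32851 windows of the table. The window of *Pdk2* held 3 such matches and that of *Pdhb* also 3, of which the one nearest the start lies inside the annotated gene and is not printed. GGGCGG, bound by Sp1 and related factors, was found in the windows of 6 of the 9 genes and in 32.7% of all windows. The window of *Pdpr* held 2 such matches, and the one nearest the start lies inside the annotated gene and is not printed. TGACGTCA, the cAMP response element, was found before 1 of the 9 genes, *Pdpr*, and in 1.55% of all windows. TATAAA was found before 0 of the 9 (12.4% of all windows), as was AAGGTCA (4.08% of all windows). The windows of the 9 genes were richer in G and C, from 58.8% (*Pdk4*) to 78.4% (*Pdpr*), beside a median of 52.4% over all windows. The value of *Pdpr* covers the whole window, of which 115 bases lie inside the annotated gene and 135 are printed. The shares of windows with a motif were not matched for the content of G and C. The window of *Pdha1* held no match to any of these 5 motifs, so the pair with the most similar pattern shared none of them. A match is a description of letters in the window and not a measured binding site.

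Genes can be compared with each other only per length, so the levels of this paragraph are locus CPM per kilobase of annotated exons, as the mean over the 6 samples. *Pdha1*, the alpha chain of the first enzyme, had the highest level of the 10 genes, 27.8 ± 2.28 (SD, *n* = 6). *Pdhb*, its beta chain, followed with 23.7 ± 2.72. *Pdhx*, which anchors dihydrolipoamide dehydrogenase in the core, had 8.97 ± 0.968 and *Dlat*, the acetyltransferase that forms the core, 8.85 ± 0.733. The locus of the regulatory chain *Pdpr* had 7.69 ± 0.493, below the subunits but above the mean of each kinase and of both catalytic phosphatase chains. Its place rests on the row without the symbol, with 7.50, since the row with the *Pdpr* symbol had 0.20. Whether the row without the symbol holds only *Pdpr* RNA was not tested. Nor was this tested for *Pdhb* and *Pdhx*, whose rows with the symbol alone had 17.1 and 5.12. By that row, *Pdhx* would lie below *Dlat*, the *Pdpr* locus and *Pdk1*. Below the *Pdpr* locus, the next levels were those of *Pdk1*, with 5.91 ± 1.62, *Pdp1*, with 4.68 ± 0.411, and *Pdk2*, with 3.45 ± 1.07. The lowest were *Pdk4*, with 2.17 ± 0.871, and *Pdp2*, with 1.50 ± 0.182. In this order, the samples of neighbouring genes overlapped at every step but the one from *Pdhb* (lowest sample 19.5) to *Pdhx* (highest sample 9.90). Dihydrolipoamide dehydrogenase (*Dld*), the third enzyme, is shared with other complexes and had 28.5 ± 2.14, and the fourth kinase gene, *Pdk3*, had 5.43 ± 1.23. Of the 10 genes, *Pdha1* overlaps *Map3k15*, *Pdpr* overlaps *9430091E24Rik* and *Pdk2* overlaps the antisense gene *Gm11513*, each on the opposite strand. Whether strand was used in counting is not given in the sources used here, so the counts of these 3 genes are uncertain to that extent.

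**Figure D1:**
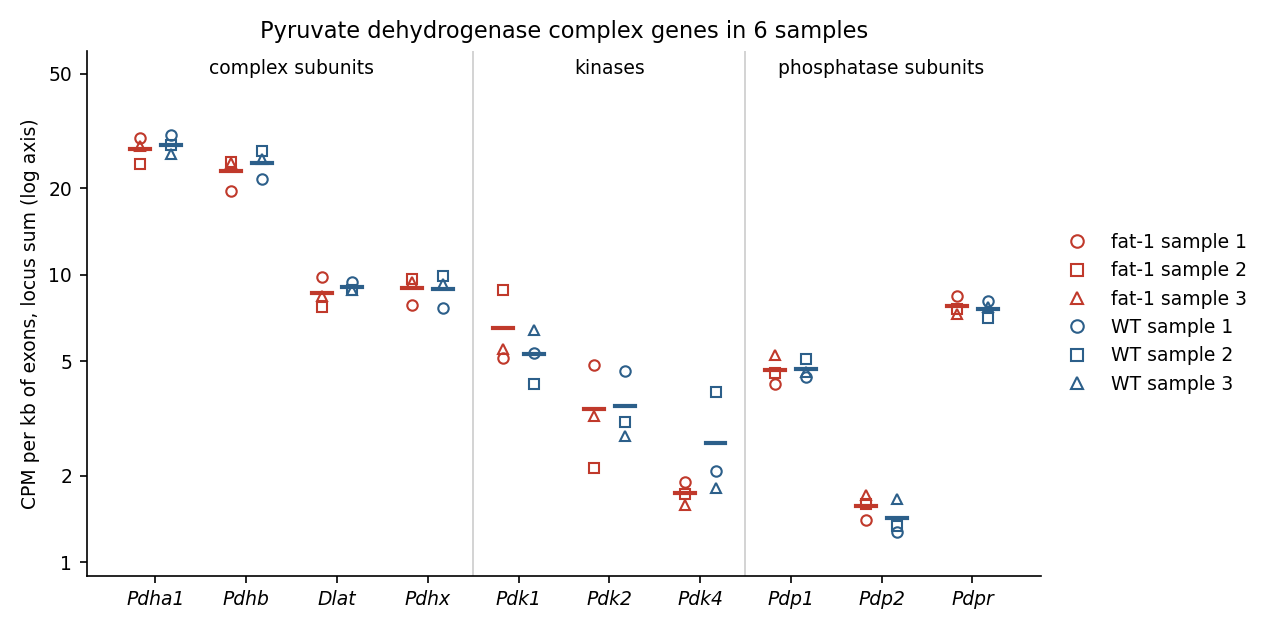
Locus CPM per kilobase of annotated exons (log axis) of the 10 genes in the 3 *fat-1* (red) and 3 WT (blue) samples, with 1 symbol per sample and a bar at each genotype mean. *Pdha1* and *Pdhb* lie above the other 8 genes in every sample, the genotypes overlap for each gene, and *Pdk1*, *Pdk2* and *Pdk4* spread more than the subunits.

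The subunit genes had similar levels in both genotypes. The *Pdha1* locus, on chromosome X (160122209 to 160138413, GRCm38), had 111.2, 90.8 and 104.5 CPM in *fat-1* mice and 113.9, 105.1 and 97.7 CPM in WT mice. The samples of the genotypes interleaved, and sample 1 was the highest in each. The log2 fold change of *fat-1* relative to WT was −0.05 (SE 0.11, adjusted *p* = 1.0 by the quasi-likelihood test of edgeR over 24061 loci), with a 95% interval from 0.805-fold to 1.17-fold. *Dlat* (chromosome 9, 50634633 to 50659780) had 48.0, 37.8 and 41.2 CPM in *fat-1* mice and 45.9, 43.4 and 43.2 CPM in WT mice. Both the highest and the lowest value were in *fat-1* samples, and the log2 fold change was −0.06 (SE 0.12). *Dld* had a log2 fold change of −0.05 (SE 0.10).

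*Pdhb* and *Pdhx* had to be read as locus sums, since their counts were split between a row with the symbol and a row without. The *Pdhb* locus (chromosome 14, 8165996 to 8173025) had 75.3, 95.4 and 94.2 CPM in *fat-1* mice and 82.8, 104.1 and 97.1 CPM in WT mice, a log2 fold change of −0.10 (SE 0.14). The row with the symbol held 68.8%, 65.8% and 70.1% of the locus in *fat-1* mice and 90.0%, 75.4% and 65.1% in WT mice. The *fat-1* samples were alike in this share, WT sample 1 stood above all others and WT sample 3 was the lowest. The *Pdhx* locus (chromosome 2, 103021075 to 103073513) had 30.9, 38.1 and 37.2 CPM in *fat-1* mice and 30.1, 38.9 and 36.5 CPM in WT mice, a log2 fold change of 0.01 (SE 0.14). Its row with the symbol held 69.5%, 57.7% and 68.5% of the locus in *fat-1* mice and 66.6%, 17.6% and 68.2% in WT mice. WT sample 2 alone had most of its *Pdhx* counts in the row without the symbol, 32.0 CPM against 9.43 to 16.1 CPM in the other 5 samples, while its locus sum was the highest of all 6. The log2 fold change of the *Pdhx* row with the symbol was 0.42 (SE 0.45), and without WT sample 2 it was 0.03. In the *Pdhb* row with the symbol it was −0.26 (SE 0.15).

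Whether the split of a locus between its rows differed between the genotypes was tested with edgeR over the 5371 loci with at least 2 rows that had enough counts. The share passed the adjusted threshold of 0.05 in 17 loci (0.317%) and the unadjusted one in 487 (9.07%). Both counts are uncertain, since on simulated counts this test called more unchanged loci than its threshold allows, and leaving out 1 sample gave 29 (without WT sample 2) to 51 (without WT sample 3) loci in place of 17. *Pdhb* (adjusted *p* = 0.913) and *Pdhx* (adjusted *p* = 0.872) passed neither. *Pdpr* was chosen because the row with its symbol differed between the genotypes, so the values of its rows are a description, with the sign as the labels give it. The row with the *Pdpr* symbol had 1.34, 2.66 and 1.28 CPM in *fat-1* mice and 0.126, 0.128 and 0.370 CPM in WT mice, and it held 3.16%, 6.97% and 3.48% of the locus in *fat-1* mice and 0.311%, 0.361% and 0.950% in WT mice. Every *fat-1* sample lay above every WT sample. Over the 4160 loci with exactly 1 row with and 1 row without a symbol, the share did not overlap between the genotypes in 356 (8.56%). The row without the symbol, which held the rest, had 40.9, 35.4 and 35.5 CPM in *fat-1* mice and 40.5, 35.4 and 38.6 CPM in WT mice. Of these 4160 loci, the highest and the lowest sample of a locus lay 20.9 percentage points apart at the median. The range was 6.66 points for *Pdpr*, 24.8 for *Pdhb* and 51.9 for *Pdhx*, and 14.0%, 58.2% and 88.8% of loci had a smaller one. The rows with a symbol whose log2(CPM + 1) followed that of the *Pdpr* row most closely over the 6 samples were *Elmod3* (*r* = 0.996), *mt-Tm* (*r* = 0.986) and *Tars2* (*r* = 0.985). Of 16401 rows compared, 44 had an *r* of at least 0.9, and such a likeness includes the genotype difference for which the *Pdpr* row was chosen.

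**Figure D2:**
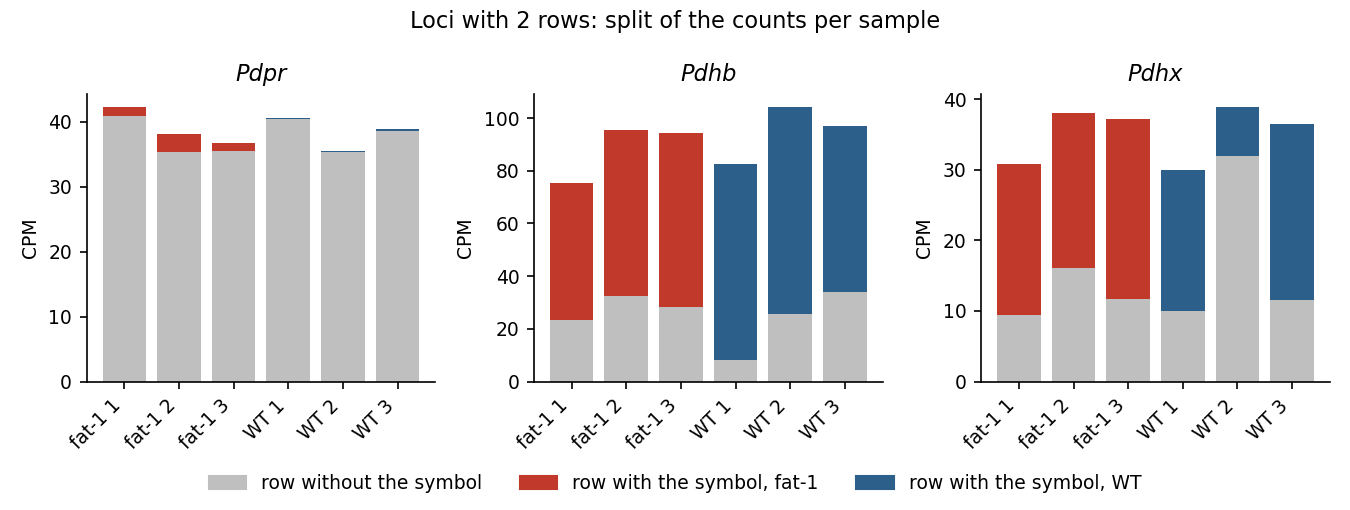
CPM (linear axes, 1 scale per gene) of the row without the symbol (grey) and the row with the symbol (red for *fat-1*, blue for WT) stacked for each sample at the *Pdpr*, *Pdhb* and *Pdhx* loci, so that the bar height is the locus sum. The named *Pdpr* row is a thin band on each bar, and WT sample 2 holds most of its *Pdhx* counts, 32.0 CPM, in the grey row although its bar is the highest.

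The kinase genes varied more between samples than the subunits, and no kinase differed between the genotypes beyond that spread. *Pdk1* (chromosome 2, 71873224 to 71903858), a kinase known to be induced by hypoxia, had 39.8, 69.0 and 43.0 CPM in *fat-1* mice and 41.6, 32.5 and 50.1 CPM in WT mice. *Fat-1* sample 2 was the highest and WT sample 2 the lowest. The log2 fold change was 0.29 (SE 0.26), with a 95% interval from 0.793-fold to 1.89-fold, and it was 0.00 without *fat-1* sample 2. *Pdk2* (chromosome 11, 95026258 to 95041354), the kinase found in most tissues, had 15.4, 6.76 and 10.2 CPM in *fat-1* mice and 14.6, 9.76 and 8.74 CPM in WT mice. Sample 1 of each genotype was well above the other two, and the log2 fold change was −0.03 (SE 0.34), with a 95% interval from 0.555-fold to 1.73-fold. *Pdk4* (chromosome 6, 5483351 to 5496309), the kinase induced by fasting and by fatty acids through PPAR, had 6.66, 6.10 and 5.56 CPM in *fat-1* mice and 7.28, 13.8 and 6.37 CPM in WT mice. WT sample 2 stood apart, and the other 5 samples lay between 5.56 and 7.28 CPM. The log2 fold change was −0.58 (SE 0.31, unadjusted *p* = 0.103 and adjusted *p* = 1.0 by edgeR), with a 95% interval from 0.401-fold to 1.11-fold, and it was −0.16 without WT sample 2. *Pdk3* had a log2 fold change of 0.07 (SE 0.25).

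Which kinase was the most abundant differed between samples. Of the summed CPM per kilobase of the 4 kinase genes, *Pdk1* made up between 26.3% (WT sample 2) and 45.6% (*fat-1* sample 2). *Pdk2* ranged from 11.0% (*fat-1* sample 2) to 30.3% (*fat-1* sample 1). *Pdk3* ranged from 26.0% (*fat-1* sample 1) to 38.7% (WT sample 3). *Pdk4* made up 24.7% in WT sample 2 and between 8.92% and 12.7% in the other samples. The log2 ratio of *Pdk1* to *Pdk2* CPM was 1.37, 3.35 and 2.08 in *fat-1* mice and 1.51, 1.73 and 2.52 in WT mice, so that it varied over a wider range within *fat-1* than between the genotype means of 2.27 and 1.92. The log2 ratio of the summed CPM of *Pdk1*, *Pdk2* and *Pdk4* to that of *Pdp1* and *Pdp2* was 1.16 ± 0.33 (SD, *n* = 3) in *fat-1* mice and 1.07 ± 0.18 in WT mice.

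The catalytic phosphatase chains had levels within a narrow range. *Pdp1* (chromosome 4, 11958184 to 11966452), the calcium-stimulated form, had 18.8, 20.5 and 23.6 CPM in *fat-1* mice and 19.9, 23.0 and 20.8 CPM in WT mice, a log2 fold change of −0.01 (SE 0.13). *Pdp2* (chromosome 8, 104591451 to 104599026), which is known to respond to insulin, had 8.00, 9.09 and 9.76 CPM in *fat-1* mice and 7.26, 7.65 and 9.46 CPM in WT mice. The genotypes overlapped, and the log2 fold change was 0.14 (SE 0.15), with a 95% interval from 0.851-fold to 1.43-fold. The *Pdpr* locus (chromosome 8, 111094630 to 111137074) summed to 42.3, 38.1 and 36.7 CPM in *fat-1* mice and 40.6, 35.5 and 38.9 CPM in WT mice. The sums interleaved, and their log2 fold change was 0.03 with a 95% interval from 0.855-fold to 1.21-fold. The row without the symbol makes up nearly all of this sum.

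Across all loci, edgeR's quasi-likelihood test gave 0 of 24061 past the adjusted threshold (0%) and 274 (1.14%) at an unadjusted *p* of 0.05 or less. Of the 10 genes, 0 passed either threshold as locus sums, and 0 passed the adjusted one by edgeR's exact test, its likelihood ratio test or DESeq2, which called 6 (0.0249%), 7 (0.0291%) and 8 (0.0332%) of all loci. The 2 genotypes did not overlap in 998 loci (4.15%) and in 0 of the 10 genes. Across rows, 0 of 30683 passed the adjusted threshold (0%) and 678 (2.21%) the unadjusted one. Of the rows with the 10 symbols, 1 had an unadjusted *p* at or under 0.05, and it was that of *Pdpr*, on which the gene had been chosen. Its adjusted *p* was 1.0 by the quasi-likelihood test. After adjustment the exact test called 32 of all rows (0.104%), the likelihood ratio test 38 (0.124%) and DESeq2 93 (0.303%), in each case with the *Pdpr* row and none of the other 9 among them. The median log2 fold change of the 10 locus sums was −0.02, beside 0.00 over all loci tested. The median absolute value was 0.05, beside 0.11 over all loci, and the lowest and highest values were −0.58 (*Pdk4*) and 0.29 (*Pdk1*). The 2 sets differ in level, since the least of the 10 locus means was 7.62 CPM (*Pdk4*) and only 14659 loci had a mean of at least 1 CPM. Loci of matched level were not compared.

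**Figure D3:**
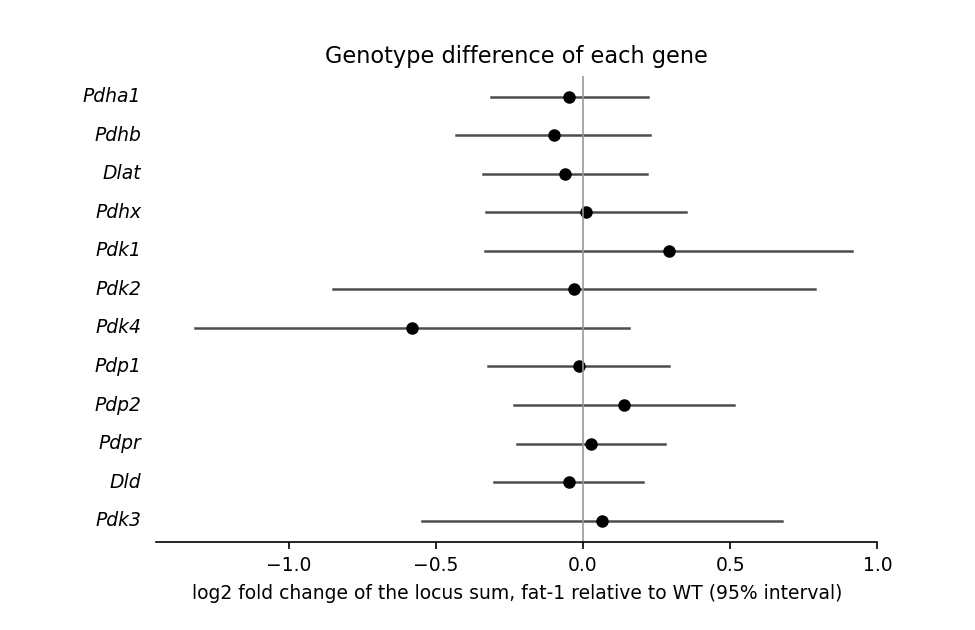
Log2 fold change of *fat-1* relative to WT (points) with 95% intervals (lines) for the locus sums of the 10 genes and of *Dld* and *Pdk3*, by edgeR's quasi-likelihood test with 3 samples per genotype. All 12 intervals include 0, and those of the kinases are wider than those of the subunits.

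The spread within each genotype was set against the markers of epithelial cells. The locus log2(CPM + 1) of each gene was compared over the 6 samples with the luminal and basal marker mean, with exact two-sided permutation tests and *p*-values adjusted over the 10 genes. *Pdha1* followed the marker mean, with Pearson's *r* = 0.966 (exact permutation *p* = 0.00139, the smallest that 6 samples allow, adjusted *p* = 0.0139). Its Spearman's rho was 1.0 (exact permutation *p* = 0.00278, adjusted *p* = 0.0278), and leaving out *fat-1* sample 2 and WT sample 3, whose marker means lay farthest from the median, gave *r* = 0.989. In both genotypes, the order of the samples by *Pdha1* was their order by the marker mean. How many of all loci follow the marker mean as closely was not computed, so this relation is not shown to be particular to *Pdha1*. *Pdk2* had *r* = 0.950 (exact permutation *p* = 0.0167, adjusted *p* = 0.0834) and rho = 0.886 (exact permutation *p* = 0.0333, adjusted *p* = 0.111), and without those samples it had *r* = 0.977. *Dlat* had *r* = 0.803 (exact permutation *p* = 0.0431, adjusted *p* = 0.144) and rho = 0.886 (exact permutation *p* = 0.0333, adjusted *p* = 0.111), so neither gene passed after adjustment.

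The other genes did not pass either. *Pdhx* (*r* = −0.771), *Pdp2* (*r* = −0.727), *Pdk1* (*r* = −0.697) and *Pdhb* (*r* = −0.690) had negative values, each with an adjusted exact permutation *p* of 0.194. Their rho was −0.600, −0.714, −0.771 and −0.543, with adjusted exact permutation *p*-values from 0.257 to 0.372. With the same 2 samples left out, *r* was −0.981 for *Pdhx*, −0.879 for *Pdhb* and −0.620 for *Pdp2*, whereas for *Pdk1* it was 0.355, so its value rested on those samples. The values of *Pdhx* and *Pdhb* are those of locus sums. In their rows with the symbol, *r* over all 6 samples was −0.163 and 0.025. *Pdpr* (*r* = 0.446), *Pdk4* (*r* = 0.199) and *Pdp1* (*r* = −0.268) had the values nearest 0, with adjusted exact permutation *p*-values from 0.455 to 0.721. Their rho was 0.429, 0.657 and −0.429, with adjusted exact permutation *p*-values from 0.292 to 0.419. With the same samples left out, *r* became 0.935, −0.290 and −0.959, so these values rested on them as well. They concern the epithelial markers only. The mean log2(CPM + 1) of the 7 fibroblast markers was 7.66, 9.10 and 9.87 in *fat-1* mice and 8.91, 9.77 and 9.44 in WT mice. The order of the 6 samples by *Pdp1* was their order by this fibroblast mean, which was looked up after the values were seen. The relation of the genes to the fibroblast markers was not tested. With the immune marker mean in place of the epithelial one, *r* was −0.943 for *Pdha1* (adjusted exact permutation *p* = 0.0556) and 0 of the 10 genes passed. The slope of *Pdha1* was 0.15 and that of *Pdk2* 0.51 log2 units per log2 unit of the marker mean. The genes and markers share libraries and scaling, and the part of the cell mix in the spread of single genes was not otherwise tested.

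**Figure D4:**
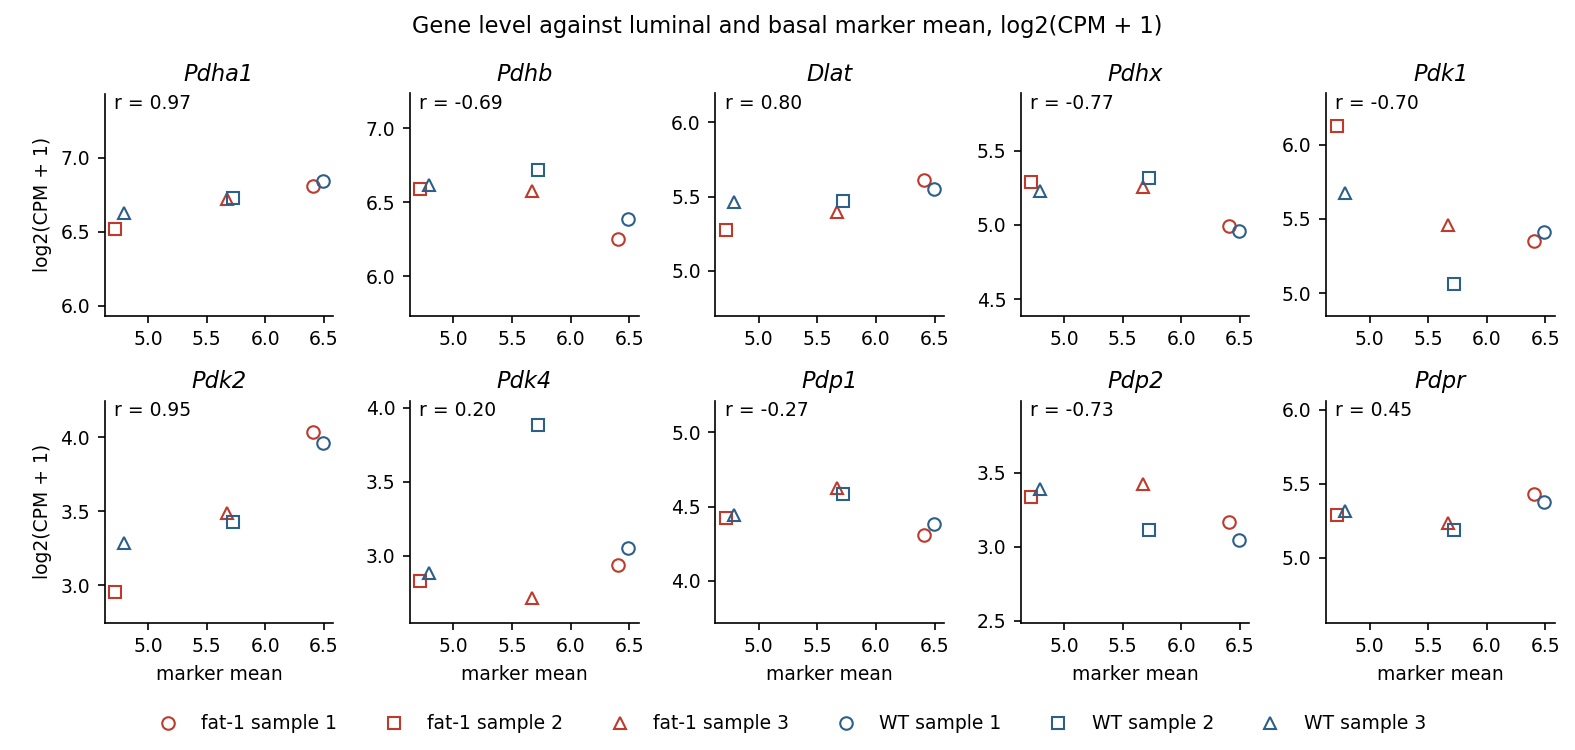
Locus log2(CPM + 1) of each gene against the mean log2(CPM + 1) of the luminal and basal markers in 6 samples (red *fat-1*, blue WT, 1 symbol per replicate number), with the same vertical span in each panel and Pearson's *r* printed. *Pdha1* and *Pdk2* have the highest *r* (0.966 and 0.950), and WT sample 2 stands above the other samples for *Pdk4*.

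The genes also paired with one another over the 6 samples, which is given as a description since they share libraries and scaling. *Pdha1* and *Pdk2*, a substrate and a kinase of the complex, were each other's nearest match (*r* = 0.959), and *Dlat* was nearest to *Pdk2* (*r* = 0.920). As locus sums, *Pdhb* and *Pdhx* were each other's nearest match (*r* = 0.921). In the rows with the symbol, WT sample 2 was the highest of all 6 for *Pdhb* (78.5 CPM) and the lowest for *Pdhx* (6.85 CPM). The match therefore depends on the rows without the symbol. The *Pdpr* locus sum ran opposite to *Pdp1* (*r* = −0.929), *Pdhb* (*r* = −0.921) and *Pdhx* (*r* = −0.884). The alpha and beta chains of the first enzyme, which form 1 tetramer, did not follow each other. The log2 ratio of *Pdha1* to *Pdhb* CPM was 0.56, −0.07 and 0.15 in *fat-1* mice and 0.46, 0.01 and 0.01 in WT mice, with sample 1 the highest in both. The log2 ratio of *Dlat* to *Pdhx* was also highest in sample 1 of each genotype, with 0.64, −0.01 and 0.15 in *fat-1* mice and 0.61, 0.16 and 0.24 in WT mice. Sample 1 of each genotype was also the one with the highest luminal and basal marker mean. It likewise had the lowest immune and the lowest fibroblast marker mean of its genotype. Which of these the ratios go with was not tested.

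Of the kinases, *Pdk4* is the one known as a target of PPAR, the nuclear receptors that fatty acids activate, so other PPAR targets were set beside it. Of 7 such genes, 2 had their highest locus sum in WT sample 2, as did *Pdk4*, and these 2 are described because of their values. *Angptl4*, a secreted inhibitor of lipoprotein lipase, had 123.8 CPM in WT sample 2 and between 40.6 and 79.8 CPM in the other 5 samples. The locus of *Plin2*, a coat protein of lipid droplets, also holds *Gm12551*, and its sum was 409.0 CPM there and between 242.6 and 312.4 CPM in the others. In the row with the *Plin2* symbol alone, *fat-1* sample 3 was the highest with 258.2 CPM, ahead of WT sample 2 with 247.1 CPM. The remaining 5 targets were highest in other samples. *Cpt1a*, which admits fatty acids to mitochondria, had 66.9 CPM in WT sample 2 and between 47.6 and 86.0 CPM elsewhere, and *Acadl*, a dehydrogenase of beta-oxidation, had 218.3 CPM there and between 143.7 and 238.4 CPM elsewhere. Over the 14659 loci with a mean of at least 1 CPM, WT sample 2 was the highest sample in 2375 (16.2%). By the ratio of WT sample 2 to the highest of the other samples, 1.89 for *Pdk4*, the *Pdk4* locus ranked 9 among these loci, a rank looked up after its values were seen. None of the 7 targets differed between the genotypes at an unadjusted *p* of 0.05 or less, and their median log2 fold change was −0.17.

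**Figure D5:**
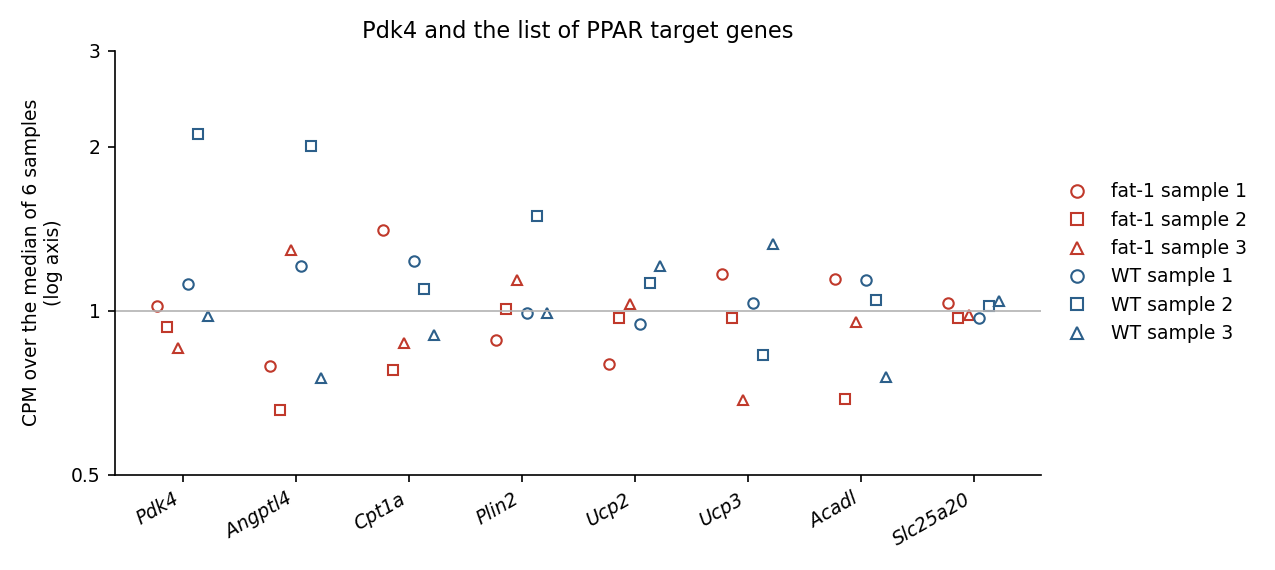
CPM of *Pdk4* and 7 PPAR target genes in each sample, divided by the median of the 6 samples of that gene (log axis), with *fat-1* in red, WT in blue and 1 symbol per replicate number. The values are locus sums, and that of *Plin2* includes *Gm12551*. WT sample 2 (blue squares) is the highest for *Pdk4*, *Angptl4* and *Plin2*, and lies among the other samples for *Cpt1a*, *Ucp2*, *Ucp3*, *Acadl* and *Slc25a20*.

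Genes around the complex were compared between the genotypes in the same way. Of 63 further genes in lists of pyruvate supply, cofactors, related dehydrogenases, the citric acid cycle, mitochondrial proteases and deacylases, regulators of kinase transcription and PPAR targets, together with *Dld* and *Pdk3*, 1 locus sum had an unadjusted *p* of 0.05 or less (1.14% of all loci did), with higher values in *fat-1* mice. None passed the adjusted threshold by edgeR, and their median log2 fold change was −0.03, beside 0.00 over all loci. The locus that passed the unadjusted one was that of *Lipt1*, a lipoyltransferase, which had 4.03, 3.97 and 4.10 CPM in *fat-1* mice and 2.99, 2.93 and 3.60 CPM in WT mice. Its genotypes did not overlap, as in 4.15% of all loci, with a log2 fold change of 0.35 (SE 0.14, unadjusted *p* = 0.0497 and adjusted *p* = 1.0 by edgeR). Fitted among rows, the row with the *Lipt1* symbol had an unadjusted *p* of 0.0702 by edgeR and did not pass. The enzyme takes part in placing lipoate, the cofactor that the product of *Dlat* carries, on such complexes.

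As locus sums, 0 of 8 genes of the supply of pyruvate passed the unadjusted threshold. The locus of *Pkm*, whose product makes pyruvate in glycolysis, also holds *Gm49759* and had 1877 ± 479.7 CPM (SD, *n* = 3) in *fat-1* and 1754 ± 215.9 CPM in WT mice, and *Ldha*, whose product turns pyruvate into lactate, had 290.4 ± 42.0 and 310.7 ± 14.1 CPM. Among 8 genes of the sister dehydrogenases, which share the design of the complex, 0 passed, and *Dlst*, the core of the 2-oxoglutarate dehydrogenase complex, had 180.5 ± 13.1 and 179.2 ± 16.7 CPM. In the citric acid cycle 0 of 14 passed, and citrate synthase (*Cs*), which takes up the acetyl-CoA, had 162.3 ± 9.35 and 164.2 ± 3.37 CPM. Of 6 genes of mitochondrial proteases and deacylases 0 passed, with *Lonp1*, a protease of the matrix, at 197.2 ± 22.5 and 195.4 ± 15.6 CPM. Of the 10 regulators of kinase transcription 0 passed, and *Ppard*, one of the PPAR genes, had 132.6 ± 6.12 CPM in *fat-1* and 127.7 ± 16.4 CPM in WT mice. In rows, 3 of these list genes had an unadjusted *p* of 0.05 or less by edgeR, which 2.21% of all rows had, and none passed after adjustment. The *Clpp* row (a mitochondrial protease) had a log2 fold change of −1.10 (SE 0.20), the *Suclg2* row (a subunit of succinyl-CoA ligase) 1.34 (SE 0.36) and the *Nr3c1* row (the glucocorticoid receptor) 0.90 (SE 0.30). The sums of their loci, of which that of *Clpp* also holds *Alkbh7*, had log2 fold changes of 0.024, 0.026 and −0.004.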

How the data were processed

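RNA-Seq was analysed in 6 pooled samples of isolated mammary epithelial cells, 3 *fat-1* and 3 WT, grouped by the sample labels. The labels name no batch, litter or day. Reads were mapped by the authors to GRCm38 with HISAT2, and transcripts were assembled and quantified with StringTie, and the estimated counts of each row were deposited as 1 matrix of whole numbers that had not been normalized. The versions, the annotation, the use of strand and how coverage was turned into counts are not given in the sources used here. Blank lines of the matrix were skipped, and 0 value columns were left without a sample. All counts of a row or locus were used as deposited, which are whole already, and at totals of 204539059 to 232148824 the number of samples limits the precision more than depth.

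The genes and all gene and marker lists were chosen with earlier results of these data known. Rows (30683 tested) and sums of rows with 1 locus number (24061 tested) were compared by edgeR 4.0.16 in R 4.3.3, using its quasi-likelihood *F* test (legacy = FALSE) after filterByExpr and TMM scaling. Genotype was the only term, and *p*-values were adjusted by Benjamini–Hochberg with 0.05 as the threshold. The SE of a log2 fold change is its size over the square root of F. Row usage was tested with diffSpliceDGE of edgeR (legacy = TRUE). Both tests were tried on simulated counts, where the row usage test called more unchanged loci than its threshold allows. The alternatives were other filters, normalizations and tests, with DESeq2 1.42.0 among them, the replicate number or marker mean as a term, and leaving out each sample. Correlations used log2(CPM + 1). Exon lengths and positions came from GENCODE for GRCm38 and promoter windows from RefSeq for GRCm38.p6, matched by symbol. Beside the 10 genes, the genes named were *Dld*, *Pdk3*, genes of each list at an unadjusted *p* of 0.05 or less and otherwise some of the 2 with the highest level, chosen markers, and the 3 rows closest to the *Pdpr* row. *Angptl4*, *Plin2*, *Cpt1a*, *Clpp*, *Suclg2* and *Nr3c1* were described after their values were seen. A further PPAR target that had been planned is not reported here, so the list of 7 is without it. Correlations and plots were computed with scipy 1.17.1, pandas 2.3.3 and matplotlib 3.10.9 under Python 3.11.15.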

Additional observations from a re-analysis of the deposited data

How the results depend on the processing

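Of the 12 fold changes of the 10 locus sums and the named *Pdhb* and *Pdhx* rows, 0 passed the adjusted threshold in any of the 182 values under the alternatives, and 1 had an unadjusted *p* at or under 0.05 by edgeR (*Pdk4*, log2 fold change −0.77 without WT sample 3). The sign turned in 16 of these values, each smaller than its SE. Leaving out 1 sample at a time gave log2 fold changes from −0.026 to 0.070 for *Pdpr*, −0.109 to 0.068 for *Pdp1*, −0.103 to 0.031 for *Pdha1*, −0.185 to 0.012 for *Pdhb*, −0.153 to 0.013 for *Dlat*, −0.088 to 0.108 for *Pdhx* and −0.369 to 0.222 for *Pdk2*, and *Pdhx* was at −0.003 with the marker mean as a term. For rows, the adjusted count of 0 was 32 by edgeR's exact test, 38 by its likelihood ratio test, 93 by DESeq2 and 0 to 2 with 1 sample left out. For loci, the count of 0 was 6, 7 and 8 by these tests and 0 to 1 with 1 sample left out. Among the rows with the 10 symbols, each of the 3 tests called 1, that of *Pdpr*, on which the gene had been chosen. Of all rows, they called 0.104%, 0.124% and 0.303%. Row usage passed in 10 loci by the newer fit and in 29 (without WT sample 2) to 51 (without WT sample 3) with 1 sample left out, against 17. With immune markers, 0 genes passed the relation in place of 1. On the row with the symbol, *r* with the epithelial marker mean was −0.359 for *Pdpr*, 0.025 for *Pdhb* and −0.163 for *Pdhx*. Apart from the ways of processing named, the cause of these changes was not tested.

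The genotypes share replicate numbers. Deviations from the genotype means correlated by 0.799, −0.164 and 0.132 between samples numbered 1, 2 and 3, and *fat-1* sample 2 correlated best with WT sample 3 (0.789) and *fat-1* sample 3 with WT sample 2 (0.368), so the samples were taken to share only a number. With the replicate block, 0 rows, 0 loci and 5 loci of the row usage test passed.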
